A study of Mus musculus with 2 samples.

Results

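The cytosolic ribosomal protein genes encode the protein parts of the 80S ribosome, and their messages are among the most abundant of any cell. They were taken here by symbol: Rpl and Rps followed by a number, with the usual suffixes of paralogues and isoforms, plus Rplp0 to Rplp2 and Rpsa, without pseudogenes and without the Rps6k kinases. The rule matched 84 of 32285 genes, 52 of the large (60S) and 32 of the small (40S) subunit, on 19 chromosomes with 4 on the X. They were measured by droplet single-cell RNA sequencing in mouse embryonic forebrain, taken at day 18.5, in 2 libraries. The first came from wild-type embryos and the second from embryos labelled as Cyfip2 knockout, and each pooled 2 forebrains. The protein made from Cyfip2 belongs to the WAVE complex, through which cells build branched actin. With 1 library per genotype, differences between them carry no replicate check and were not tested.

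Each ribosome needs 1 copy of nearly every one of these proteins, so their genes are usually expressed together and in near-even amounts. The mRNAs carry a terminal oligopyrimidine (TOP) tract, a C at the start followed by a run of C and T, through which mTOR signalling sets how well they are translated. Dividing progenitors need many ribosomes, and neurons also place ribosomes in axons and dendrites. A few members have a close paralogue whose protein can occupy the same place in the ribosome.

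The sequence around the start of transcription is shown for 9 members. Rpl12 and Rplp2 show how pyrimidine-rich these starts can be, and the others are genes on which the results below turn. Each is the transcript strand from 10 bases before the annotated start to 20 bases that begin with it, from RefSeq on GRCm38.p6, and capitals mark the word CTTTC, the word CTTTT or the word CTTCC, of which Rpl22 and Rps27l hold none in the window shown. Where a gene has several annotated starts, one whose window holds most of these words is shown.
Rpl12, chr2:32961702-32961731, plus strand: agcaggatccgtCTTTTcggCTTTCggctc
Rpl35a, chr16:33056472-33056501, plus strand: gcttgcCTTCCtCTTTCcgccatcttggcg
Rplp2, chr7:141447641-141447670, plus strand: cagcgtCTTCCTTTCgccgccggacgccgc
Rps27, chr3:90213629-90213658, minus strand: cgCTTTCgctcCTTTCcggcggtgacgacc
Rpl38, chr11:114668570-114668599, plus strand: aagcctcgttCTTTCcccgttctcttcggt
Rps24, chr14:24490668-24490697, plus strand: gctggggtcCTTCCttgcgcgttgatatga
Rpl22, chr4:152325716-152325745, plus strand: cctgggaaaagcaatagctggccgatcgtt
Rpl22l1, chr3:28805498-28805527, plus strand: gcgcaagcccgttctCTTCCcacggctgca
Rps27l, chr9:66946076-66946105, plus strand: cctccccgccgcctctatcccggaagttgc

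Promoter entries were found for 64 of the 84 members, with 76 starts. The word CTTTC stood on the transcript strand in 19.7% of the member starts and in 3.74% of the 32851 starts of all genes in the table. CTTCC was in 19.7% against 6.36%, and CTTTT in 6.58% against 3.10%. On the opposite strand CTTTC was in 3.95% of member starts against 3.65% of all, CTTCC in 11.8% against 7.45%, and CTTTT in 1.32% against 2.73%. The words can overlap, as CTTCC and CTTTC do in Rplp2, and any of them was present in 36.8% of member starts against 12.5% of all on the transcript strand. The annotated first base was C in 28.9% of member starts and 16.3% of all starts. A matching word is a description of these letters and not a mapped TOP tract.

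The libraries held 123978461 wild-type and 150828048 knockout-labelled UMIs (unique molecules counted). Cells were barcodes that reached 1000 UMIs and 500 genes and stayed within a mitochondrial share of 10%. This gave 9086 and 12855 cells with a median of 9998 and 8273 UMIs. The libraries shared 32 cell barcodes. Cyfip2 was at 83.9 and 84.0 counts per 1e+06 UMIs (CPM) over all cells, so over all cells the targeted gene was not lower in the library labelled knockout. By class it was lower there in excitatory neurons (106 and 92.4 CPM) and GABAergic neurons (85.9 and 78.4) and higher in radial glia (21.5 and 54.6), in microglia and macrophages (3.69 and 46.5, from 4 and 87 counts) and in vascular cells (15.1 and 125, from 6 and 143 counts). Where the deletion lies relative to the counted sequence is not given in the sources used here, so these levels do not check the label. Directions between the libraries therefore rest on the labels alone. The summed level of the 5 choroid plexus and ependyma markers was 1394 and 2053 CPM over all cells, that of the 10 microglia and macrophage markers 306 and 543, that of the 5 red blood cell markers 658 and 928, and that of the 12 excitatory neuron markers 4934 and 4530.

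Of the 84 members, 81 were measured, that is, they reached 20 CPM in one library or the other and 100 counts in sum. These were 49 large-subunit and all 32 small-subunit genes. Together the family made up 13.6% of all UMIs in wild-type and 13.9% in knockout-labelled cells (exact binomial intervals 13.58 to 13.60% and 13.94 to 13.95%). Of the 100 genes with most UMIs, 56 in the wild-type and 58 in the knockout-labelled library were members. Here and below, intervals are exact, at 95%, and cover counting error only, and paired values are in the order wild-type, knockout-labelled.

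Among the highest levels were those of Rpl13, with 2806 and 2966 CPM, Rpl41, which encodes the smallest protein of the ribosome, with 2704 and 2730, Rpl23 with 2627 and 2744, and Rps29 with 2548 and 2639. The middle of the family was narrow, with quartiles of 1347 and 1999 CPM around a median of 1767 in wild-type cells, and of 1368 and 2063 around 1816 in knockout-labelled cells. Large-subunit genes had a median of 1684 and 1739 CPM and small-subunit genes one of 1810 and 1880. UMI counts were not corrected for transcript length or capture, so an order between genes is an order of counted molecules.

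The lowest measured members were mostly paralogues. Rpl7l1, the paralogue of Rpl7, had 75.5 and 74.1 CPM, Rps27l 216 and 216, Rpl36al 433 and 447, and Rpl22l1 453 and 466. Rpl4, a core large-subunit protein with no paralogue in the list, followed with 700.5 and 670 CPM. The log2 levels of the 81 genes had a Pearson r of 0.999 between the libraries, a description across genes that share 1 library each.

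The 3 members that were not measured are Rpl3l, known for its expression in heart and skeletal muscle, and Rpl10l and Rpl39l, known from the testis. Rpl3l had 0 counts in the wild-type and 2 in the knockout-labelled library, Rpl10l 1 and 2, and Rpl39l 28 and 13. Their partners Rpl3, Rpl10 and Rpl39 had 1057, 1345 and 1961 CPM in wild-type cells. At 0 counts, Rpl3l could make up at most 0.003165% of the pair with Rpl3.

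**Figure D1:**
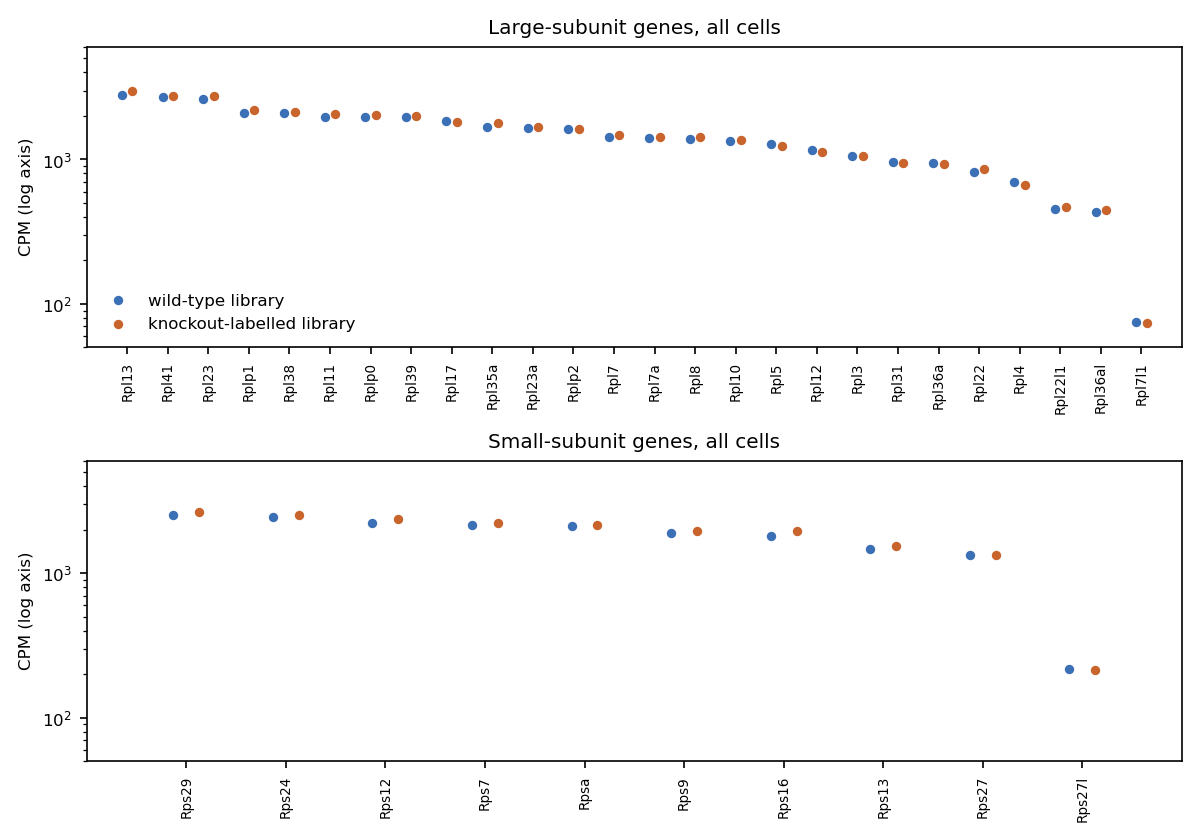
Level of the measured ribosomal protein genes named in the text, over all cells, in CPM on a log axis, ordered by mean level within the large (top) and small (bottom) subunit, with 1 point per library. The points of both libraries nearly coincide, Rpl13 is highest of the large-subunit genes shown at 2806 and 2966 CPM, and Rpl7l1, Rps27l, Rpl36al and Rpl22l1 fall off at the right.

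The share of UMIs differed between cell classes far more than between libraries. Cells were clustered without the ribosomal protein genes and clusters were named from marker genes, so each class name means a marker-based likeness (excitatory-neuron-like and so on) and no comparison of classes is a test. Excitatory neurons, 4017 and 5087 cells, gave 12.1% and 12.3% of their UMIs to the family. GABAergic neurons, 2073 and 3589 cells, gave 13.4% and 13.7%. Progenitors, 1639 and 1870 cells, gave 16.7% and 17.3%. Both libraries put these classes in the same order.

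Within the progenitors, radial glia (the stem cells of the cortex, 367 and 300 cells) were at 15.9% and 16.9%. Intermediate progenitors, their neuron-producing daughters marked by Eomes (723 and 775 cells), were at 17.3% and 18.0%. Clusters led by mitotic genes such as Top2a, named dividing cells (419 and 594 cells), were at 15.4% and 15.8%, below the intermediate progenitors. In them the 11 GABAergic neuron markers summed to 1819 and 2152 CPM, against 44.8 and 67.2 in radial glia. The sum was 27.6 and 42.5 CPM in intermediate progenitors, so lineage and division cannot be told apart in this order. Cluster 0, with 130 and 201 cells with Gadd45g, Mcm3 and Ccnd1 among its leading genes, was the highest progenitor cluster with 20.5% and 20.9%. Its mean scaled marker level was 1.26 for the dividing-cell list and 1.24 for the intermediate progenitor list, too close to name a subclass.

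Microglia and macrophages, the immune cells of the brain and its borders, had the highest share of the named classes with 22.8% and 22.5% over 68 and 142 cells. Cajal-Retzius cells, the early Reelin-secreting neurons of the cortical surface, had the lowest with 9.99% and 9.99% over 38 and 59 cells. Among cells of 5000 to 10000 UMIs (8 and 11 cells) their share was 12.6% and 6.14%, against 9.61% and 10.6% in excitatory neurons. The lowest place was thus not kept at matched depth in the wild-type library. Vascular cells had 15.1% and 16.9% over 33 and 69 cells, and meningeal cells 20.7% and 20.2% over 18 and 33 cells. Large-subunit UMIs exceeded small-subunit UMIs in every class shown, 1.39-fold and 1.38-fold in excitatory neurons, 1.29-fold and 1.28-fold in progenitors, and 1.23-fold and 1.21-fold in microglia and macrophages.

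**Figure D2:**
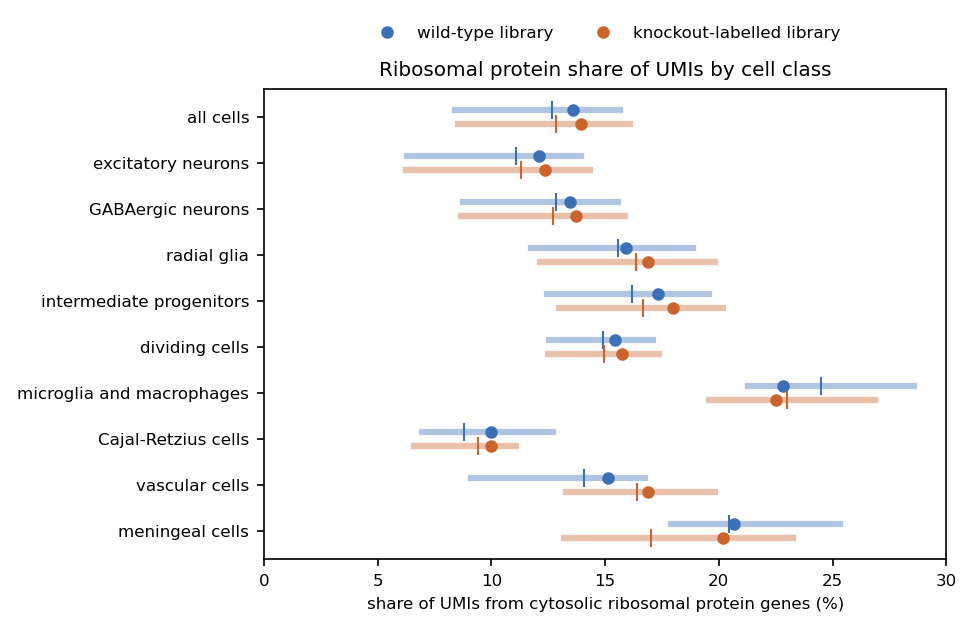
Share of UMIs from ribosomal protein genes in percent, by marker-based class, for the wild-type and knockout-labelled libraries. Points are shares of summed UMIs, vertical ticks medians over cells and bars the quartile range over cells; the share runs from 9.99% in Cajal-Retzius cells to 22.8% in microglia and macrophages.

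The 23 clusters with at least 50 cells in each library spanned 6.60 to 20.5% in the wild-type and 6.98 to 20.9% in the knockout-labelled library. Their shares had a Pearson r of 0.982 between libraries, and 19 of the 23 were higher in the knockout-labelled library. Excitatory clusters 7 and 8 stood apart at the bottom, with 6.60% and 6.98% in cluster 7 and 7.13% and 7.46% in cluster 8. The other 7 excitatory clusters lay between 11.2 and 14.2%. Clusters 7 and 8 also had fewer UMIs (medians of 4053 and 3612, and of 6175 and 5411), a median mitochondrial share of 4.23% and 4.05%, and of 4.65% and 5.03%, and more Malat1, a nuclear RNA (7.20% and 7.14%, and 5.09% and 5.403%). Excitatory cluster 16, with a ribosomal protein share of 12.3% and 11.997%, had a mitochondrial share of 3.49% and 4.14%. In the knockout-labelled library that was above cluster 7 and below cluster 8. Its median depth was 14641.5 and 11920.5 UMIs and its Malat1 share 3.21% and 3.57%, unlike clusters 7 and 8. The part of RNA quality in the low share of clusters 7 and 8 was not tested.

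In excitatory neurons the median share over cells rose from each range of depth to the next. Cells with 1000 to under 3000 UMIs had a median share of 3.49% and 4.66%, those with 3000 to under 10000 UMIs 6.89% and 8.37%, and those with 10000 or more 13.04% and 13.6%. The median mitochondrial share fell over the same ranges from 5.54% and 4.91% to 2.17% and 2.36%, and that of Malat1 from 7.55% and 7.65% to 2.54% and 2.61%. From the lowest to the highest range the median share also rose in GABAergic neurons, from 5.85% and 6.65% to 14.7% and 14.5%. In progenitors it rose from 10.6% and 9.33% to 16.8% and 17.7%. In microglia and macrophages the order was the opposite, with 33.6% and 28.6% in the shallowest cells (11 and 26 cells) and 23.3% and 22.2% in the deepest.

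In progenitors against excitatory neurons, the family was higher nearly as a whole. The median log2 ratio of the 81 genes was 0.47 in the wild-type and 0.49 in the knockout-labelled library, against 0.04 and 0.01 over all measured genes. By the size rule, at least 1.5-fold with an interval that leaves out 1, 19 members were higher in wild-type cells, where 22.0% of all measured genes were, and 22 in knockout-labelled cells, where 20.9% of all were. All 19 were among the 22, and none was lower. The share of members past the rule was therefore near the background, while the median was above it. Without clusters 7 and 8, a choice made after seeing the data, 7 and 9 members passed and the medians were 0.38 and 0.40. Among cells of 5000 to 10000 UMIs, 40 and 43 passed and the medians were 0.57 and 0.60. The shares of all measured genes past the rule at these settings are not given here, so these counts stand without a background.

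Rps27l, a paralogue of Rps27 known as a p53 target, had the largest ratio of progenitors over excitatory neurons. It went from 155 CPM in excitatory neurons to 376 in progenitors of the wild-type library (log2 1.28, interval 1.23 to 1.32) and from 160 to 395 CPM in the knockout-labelled one (log2 1.31, interval 1.26 to 1.35). Rps24, a small-subunit protein mutated in Diamond-Blackfan anaemia, went from 1876 to 3568 and from 1920 to 3750 CPM (log2 0.93 and 0.97). Rpl22 followed with log2 0.78 and 0.82, Rpl35a, another Diamond-Blackfan anaemia gene, with 0.72 and 0.78, and Rpl22l1 with 0.73 and 0.74. These 5 passed the rule in both libraries.

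At the other end, Rpl38, known for its part in the translation of Hox mRNAs, was nearly level, with 2118 CPM in excitatory neurons and 2021 in progenitors of the wild-type library and 2131 and 2109 in the knockout-labelled one (log2 -0.07 and -0.01). Rps7 had log2 0.13 and 0.18, Rpl23a 0.14 and 0.18, Rpl36al 0.17 and 0.14, and Rpl10, an X-linked protein that joins the large subunit late in its assembly, 0.18 and 0.24. The ratios of the 81 members had a Pearson r of 0.991 between libraries, so the order of the genes was nearly the same in both.

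The progenitor subclasses shared the direction but not every gene. In radial glia the median was 0.40 and 0.45, and 20 and 24 members were higher, where 29.2% and 28.5% of all measured genes were. Rps27l led with log2 1.39 and 1.47, then Rpl22l1 with 1.11 and 1.20 and Rpl7l1 with 0.99 and 1.11, while Rpl38 was at -0.20 and -0.11. In intermediate progenitors the median was 0.51 and 0.54, and 25 and 30 members were higher, against 16.1% and 15.6% of all. There Rps24 led with 0.96 and 1.00, Rps27l and Rps9, a small-subunit protein, had 0.93 and 0.94 and 0.89 and 0.93, and Rpl22l1 had 0.41 and 0.39. In the dividing cells the median was 0.37 and 0.37 and 9 members were higher in each library, 8 of them in both, against 22.3% and 21.2% of all genes. Rps27l was at 1.39 and 1.32 there and Rps24 at 0.95 and 0.96.

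GABAergic neurons differed less. The median log2 ratio over excitatory neurons was 0.15 and 0.15, and 0 of 81 members passed the rule in either direction, against 18.2% and 16.9% of all measured genes. Among cells of 5000 to 10000 UMIs the medians were 0.48 and 0.43 and 31 and 25 members passed. Rps13 was the highest with 0.50 and 0.44, and Rpl22l1 the lowest with -0.54 and -0.47. Clusters 7 and 8 bear on this comparison too, since without them the medians were 0.06 and 0.06, and 1 member passed in the wild-type library. The shares of all measured genes past the rule at that depth or without these clusters are not given here.

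Microglia and macrophages had the largest ratios, with a median of 0.87 and 0.83 over excitatory neurons against -0.72 and -0.62 over all measured genes. Of the 81 members, 65 and 63 were higher, 63 of them in both libraries, where 23.3% and 24.9% of all genes were. Rps29 went from 2107 CPM in excitatory neurons to 8167 in the wild-type library (log2 1.95) and from 2163 to 7922 in the knockout-labelled one (log2 1.87). Rpl35a had log2 1.66 and 1.55, Rps12 1.498 and 1.42 and Rplp1, a protein of the ribosomal stalk, 1.41 and 1.35. Rpl23a, with 0.20 and 0.20, Rpl7a, with 0.25 and 0.16, and Rpl38, with 0.25 and 0.25, were among the 5 smallest in both libraries. Rpl7l1 had -0.03 in wild-type and 0.55 in knockout-labelled cells. The 12 excitatory neuron markers, which include Mef2c, Sla and Nfib, summed to 934 and 907 CPM in this class, with 1 of the 12 at 0 in each library. In excitatory neurons they summed to 6944 and 6729 CPM. How much of the sum in microglia and macrophages is RNA of neurons was not tested.

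Cajal-Retzius cells went the other way, on few cells. The median log2 ratio over excitatory neurons was -0.29 and -0.33 against 0.12 and 0.11 over all measured genes. Lower by the rule were 8 and 10 members, where 17.2% and 19.0% of all genes were, and 5 of them in both libraries, among them Rpl7, Rpl22, Rplp0, which anchors the ribosomal stalk, and Rps7. Rpl7 went from 1267 to 712 CPM in wild-type and from 1292 to 802 CPM in knockout-labelled cells. Only Rpl22l1 was higher by the rule, with log2 0.96 (interval 0.84 to 1.08) and 0.87 (interval 0.77 to 0.97). Of all measured genes, 2023 of 7702 and 2050 of 7660 were higher. In the 8 wild-type Cajal-Retzius cells of 5000 to 10000 UMIs the median of the members was 0.30, against -0.76 in the 11 such knockout-labelled cells, so the lower level of the family in this class was not seen at matched depth in the wild-type library. Counted in either direction, 9 and 11 members passed the rule, a smaller part of the 81 than of all measured genes. Of those, 2023 and 2050 were higher and 1324 and 1453 lower. The members that passed were 4 and 5 with doublets kept and 18 and 22 with median-of-ratios scaling. They were 14 and 18 without clusters 7 and 8 and 22 and 60 at matched depth. The shares of all measured genes at these other settings are not given here.

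**Figure D3:**
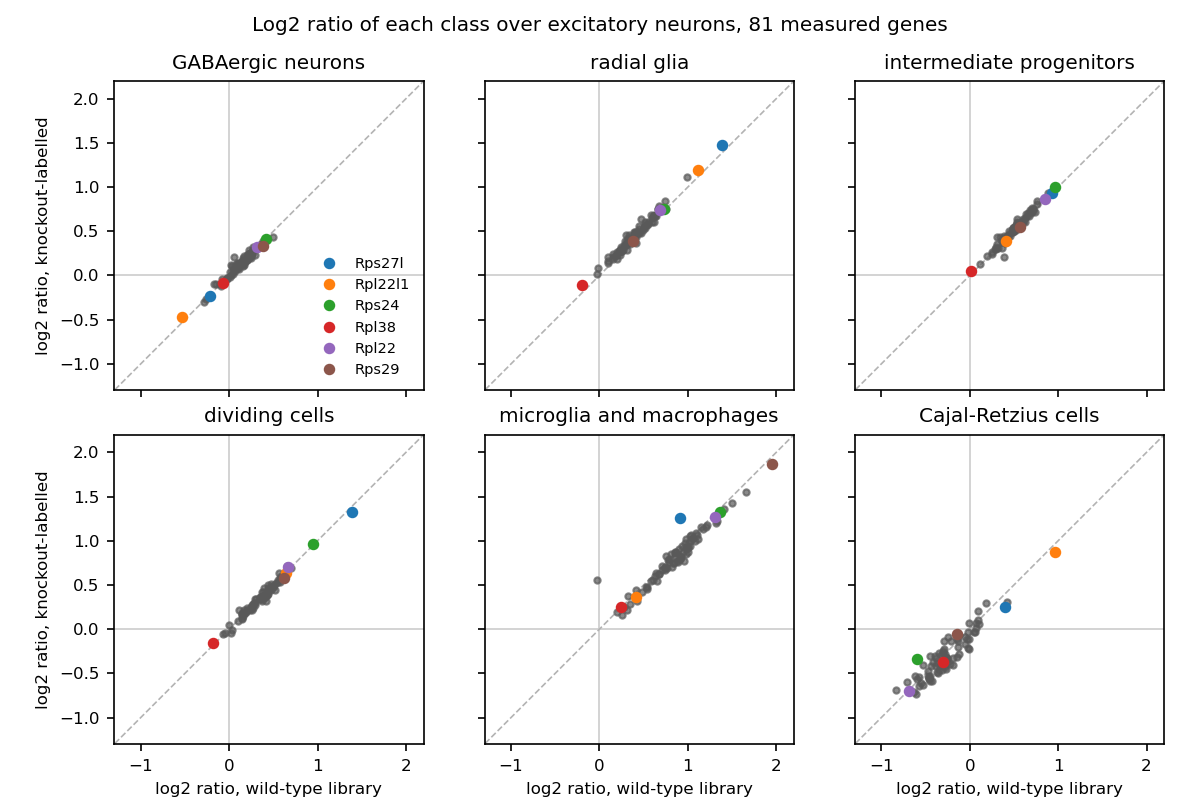
Log2 ratio of each class over excitatory neurons for the 81 measured ribosomal protein genes, wild-type library on the x axis and knockout-labelled library on the y axis, 1 point per gene and a dashed line of equality. Points lie near the line; Rps27l is highest in radial glia and dividing cells, Rps29 in microglia and macrophages, and Rpl22l1 is lowest in GABAergic neurons and highest in Cajal-Retzius cells.

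The pair of Rpl22 and Rpl22l1 changed its balance between classes. Rpl22 binds RNA in the large subunit and Rpl22l1 is its closest relative. Over all cells Rpl22l1 made up 35.5% and 35.3% of the UMIs of the pair. The share was 37.5% and 38.1% in excitatory neurons, 24.96% and 26.1% in GABAergic neurons, 44.8% and 45.8% in radial glia, 30.6% and 30.7% in intermediate progenitors, 37.1% and 37.1% in dividing cells and 24.6% and 24.6% in microglia and macrophages. In each of these classes Rpl22 stood above Rpl22l1.

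In Cajal-Retzius cells the order of the pair was turned. Rpl22 had 412 and 420 CPM, from 321 and 460 counts, and Rpl22l1 had 779 and 766 CPM, from 606 and 838 counts. Rpl22l1 thus made up 65.4% (interval 62.2 to 68.4%) and 64.6% (61.9 to 67.2%) of the pair. At 5000 to 10000 UMIs it was 65.8% and 47.2%. Meningeal cells had 42.6%, below wild-type radial glia, and 53.6%, values whose intervals do not meet (39.3 to 45.9% and 51.1 to 56.1%) on 18 and 33 cells. The lowest cluster was cluster 24, a GABAergic cluster led by Adarb2 and Htr3a, with 18.9% and 17.5%, and the excitatory clusters ran up to the 43.8% and 43.2% of cluster 12.

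Rps27l followed another pattern. It made up 11.5% and 12.1% of its pair with Rps27 in excitatory neurons and 8.01% and 8.39% in GABAergic neurons, but 22.9% and 24.5% in radial glia and 23.1% and 23.2% in dividing cells. Intermediate progenitors lay between, with 14.5% and 15.0%. In microglia and macrophages the libraries differed, with 10.8% (9.74 to 12.03%) and 15.1% (14.1 to 16.2%). The level of Rps27 itself was 1367 and 1370 CPM in radial glia and 1195 and 1167 in excitatory neurons.

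Of the other pairs, Rpl36al, which like Rpl36a encodes a protein near the exit site for transfer RNA, made up 31.3% and 32.2% of its pair in excitatory neurons, 33.9% and 34.0% in radial glia, 38.8% and 41.5% in microglia and macrophages and 42.5% and 44.2% in Cajal-Retzius cells. Rpl7l1 made up 4.87% and 4.63% of its pair with Rpl7 in excitatory neurons, 7.94% and 7.84% in radial glia, and 8.73% and 7.29% in Cajal-Retzius cells, from 53 and 69 counts. Reads shared between near-identical copies could be split or lost in counting, and how the counting treated them was not stated by the sources. Rps27rt, a retrotransposed copy of Rps27 outside the symbol rule, had 40.8 and 39.0 CPM over all cells. The 5 rows named as pseudogenes of the family held 0.00500% and 0.00480% of UMIs.

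**Figure D4:**
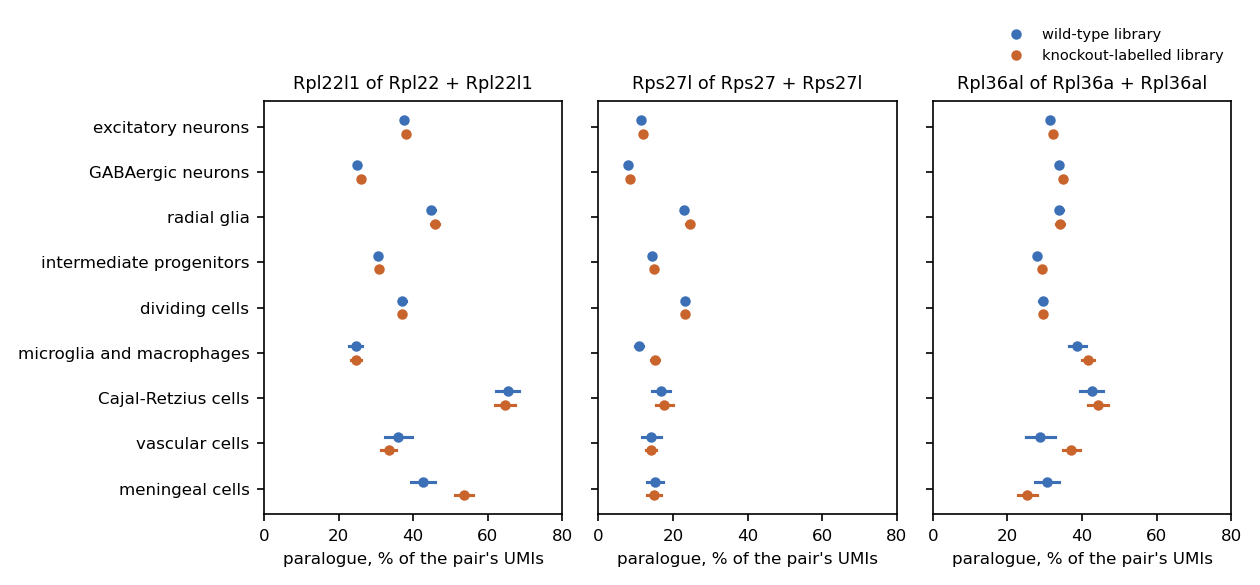
Paralogue as a percent of the UMIs of its pair, by marker-based class, for Rpl22l1, Rps27l and Rpl36al, with 1 point per library and bars for exact 95% binomial intervals, which cover counting error only. Rpl22l1 passes 50% in Cajal-Retzius cells of both libraries and in meningeal cells of the knockout-labelled one, and Rps27l is highest in radial glia and dividing cells.

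Between the libraries the family moved little in the larger classes. Over all cells, 0 of 81 members passed the size rule in either direction, against 0.512% of all measured genes. The count was 0 as well in excitatory neurons (0.282% of all genes), GABAergic neurons (0.614%), progenitors (0.362%), radial glia (1.54%), intermediate progenitors (0.225%), dividing cells (0.584%), and microglia and macrophages (5.7%). Among the 33 and 69 vascular cells, 2 members passed, where 30.2% of all measured genes did. They were Rpl38, with 1994 and 5101 CPM (log2 1.36, interval 1.25 to 1.46), and Rps7, with 1976 and 3044 CPM (log2 0.62, interval 0.51 to 0.74), and the median of the members was 0.10. Without the filter on low values 1 member passed over all cells, Rpl39l with its 28 and 13 counts.

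Below that size, most members were slightly higher in the knockout-labelled library. The median log2 ratio over all cells was 0.04 against -0.02 over all measured genes. The interval lay above 0 for 62 members, below 0 for 11 and held 0 for 8, while it lay above 0 for 17.9% and below for 34.3% of all measured genes. Medians were 0.03 in excitatory neurons, 0.03 in GABAergic neurons and 0.06 in progenitors, with 50, 47 and 69 intervals above 0 and 12, 6 and 1 below. Of all measured genes in these classes, 14.6%, 11.4% and 10.4% had intervals above 0 and 21.3%, 15.3% and 20.4% below. The classes held their clusters in other proportions in each library: cluster 13 gave 135 and 646 of the excitatory neurons and cluster 19 gave 188 and 589 of the GABAergic neurons. With equal cluster weights the medians of these 2 classes were 0.053 and 0.062. The medians were 0.09 in radial glia, 0.06 in intermediate progenitors and 0.03 in dividing cells, and -0.01 in microglia and macrophages, where all measured genes had 0.02. These intervals hold no spread between embryos or preparations, so differences of this size cannot be told apart from differences between 2 preparations.

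Depth also differed between the libraries. The median cell had 10561 and 8508 UMIs among excitatory neurons, 7098 and 6076 among GABAergic neurons and 13185 and 11653 among progenitors. In cells of 5000 to 10000 UMIs the medians between libraries were larger, 0.12 over all cells, 0.14 in excitatory neurons, 0.09 in GABAergic neurons and 0.17 in progenitors. In excitatory neurons the choroid plexus and ependyma markers summed to 28.1 and 82.3 CPM. Their part, and that of depth, in the difference was not tested.

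Some genes stood at an end in several of these groups, though all cells include the cells of the classes. The highest genes in GABAergic neurons were others. Rps16, a small-subunit protein, was highest over all cells with 1816 and 1952 CPM (log2 0.10, interval 0.10 to 0.11) and in excitatory neurons with 1552 and 1659 CPM (log2 0.10), and second in progenitors with 2290 and 2474 CPM (log2 0.11). Over all cells Rpl35a and Rps12 came next with log2 0.09 each, and in excitatory neurons Rpl13 and Rps12 with 0.09 each. Rpl35a led in progenitors with 2244 and 2447 CPM (log2 0.13), ahead of Rpl13 with 0.10. In GABAergic neurons Rpl22l1 was highest with 276 and 302 CPM (log2 0.13, interval 0.08 to 0.19), then Rpl7l1 with 0.10, whose interval held 0, and Rpl8 with 0.09.

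Rpl4 was lowest over all cells with 700.5 and 670 CPM (log2 -0.06), in excitatory neurons with 650 and 619 CPM (log2 -0.07) and in GABAergic neurons with 684 and 656 CPM (log2 -0.06). Rpl5, which with Rpl11 and 5S rRNA can bind Mdm2, was lowest in progenitors with 1642 and 1615 CPM (log2 -0.02), followed by Rps27 and Rpl4 with -0.02 each and intervals that held 0. Rpl12, at -0.04 over all cells, Rpl17, at -0.04 in excitatory neurons, and Rpl23a and Rpl31, at -0.05 each in GABAergic neurons, were near them, as was Rpl7l1 with -0.05 in excitatory neurons and an interval that held 0. In microglia and macrophages Rpl7l1 had 69 and 172 counts (log2 0.53, interval 0.12 to 0.95) and Rps27l 316 and 714 counts (log2 0.39, interval 0.19 to 0.58). In intermediate progenitors Rpl7l1 was the lowest member, with 84.9 and 72.5 CPM (log2 -0.23, interval -0.39 to -0.06).

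**Figure D5:**
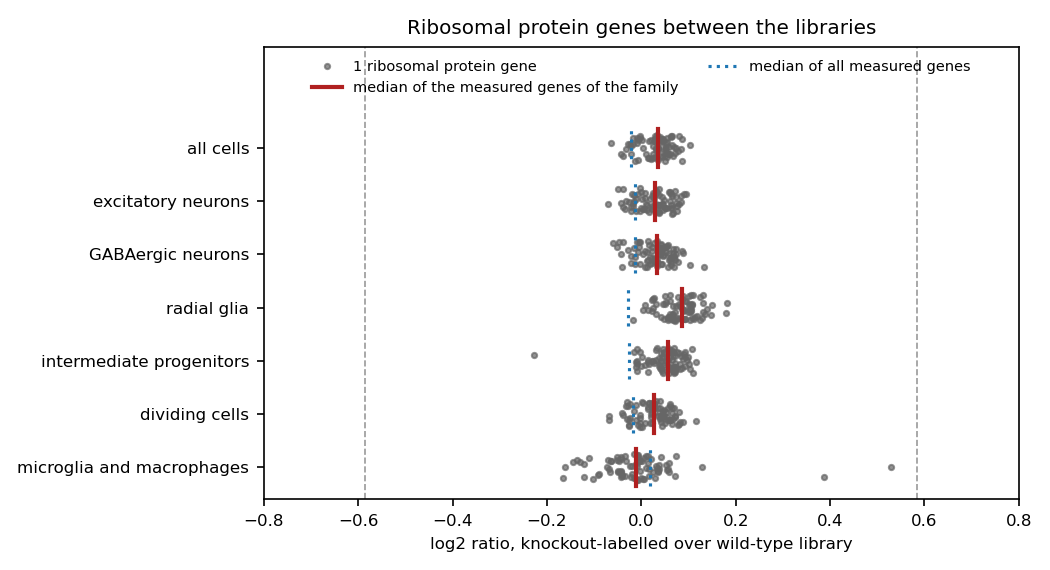
Log2 ratio between libraries (knockout-labelled divided by wild-type) of the 81 measured ribosomal protein genes by class, 1 point per gene with random vertical spread, red bars for their median and dotted blue bars for the median of all measured genes. Dashed lines mark 1.5-fold; no gene passes them, and the red bars lie to the right of the blue ones except in microglia and macrophages.

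The genes Fau and Rack1 also encode proteins of the ribosome but fall outside the symbol rule. Fau, which encodes Rps30 fused to a ubiquitin-like protein, had log2 0.50 and 0.53 in progenitors over excitatory neurons and 1.89 and 1.85 in microglia and macrophages. Rack1, a scaffold on the small subunit, had 0.44 and 0.49 in progenitors. Between the libraries in excitatory neurons Fau was at 1692 and 1747 CPM (log2 0.05) and Rack1 at 1077 and 1052 (log2 -0.03).

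Translation factors and other TOP mRNAs, 25 genes, had a median of 0.37 and 0.39 in progenitors over excitatory neurons, with intervals above 0 for 19 and 20 and below for 4 and 3. Of all measured genes in that comparison, 46.4% and 44.7% had intervals above 0 and 42.1% and 43.8% below. Tpt1, a translationally controlled protein and a classical TOP mRNA, had 0.48 and 0.53, while Eef1a1, the main elongation factor, had 0.10 and 0.15 and Eef2, which moves the ribosome along, -0.05 and 0.00. In microglia and macrophages this list had a median of -0.14 and -0.17, above the -0.72 and -0.62 of all measured genes, with Tpt1 at 0.92 and 0.90 and Eef2 at -0.43 and -0.52. In Cajal-Retzius cells the median was -0.26 and -0.18, with Tpt1 at -0.84 and -0.96. Between libraries in excitatory neurons the median was -0.01, with Eef1b2 at 0.08, Eif3h at 0.04, Hnrnpa1 at -0.12 and Eef1a2, the neuronal form of Eef1a1, at -0.16.

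Mitochondrial ribosomal protein genes, which serve the separate ribosomes of mitochondria, numbered 78. Their median was 0.31 and 0.31 in progenitors over excitatory neurons, with intervals above 0 for 62 of 77 and 61 of 76 measured, against the 46.4% and 44.7% of all genes. In microglia and macrophages it was -0.20 and -0.22, below 0 but above all measured genes, and in Cajal-Retzius cells 0.28 and 0.31, above the 0.12 and 0.11 of all measured genes. Between libraries in excitatory neurons the median was 0.01, with Mrpl53 at 0.13, Mrpl36 and Mrps18b at 0.10 and -0.10 and Mrpl3 at -0.12.

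Ribosome biogenesis factors had a median of 0.13 and 0.11 in progenitors over excitatory neurons, with intervals above 0 for 25 of 43 and 24 of 42 measured, against the 46.4% and 44.7% of all genes. Npm1, a nucleolar chaperone, had 0.60 and 0.64 and Ncl, nucleolin, 0.26 and 0.25. In microglia and macrophages the list had -0.69 and -0.49, near all measured genes, and in Cajal-Retzius cells -0.16 and -0.29. Between libraries in excitatory neurons it had 0.00, with Ddx10 and Sbds at 0.10 each, Rrn3 at -0.10 and Tsr1 at -0.14. Genes of the mTOR pathway had -0.19 and -0.29 in progenitors over excitatory neurons and -0.01 between libraries in excitatory neurons, where Myc had 0.16, Rptor 0.05, Mycn -0.09 and Eif4ebp2, a repressor of cap-dependent translation, -0.14.

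The list of p53 targets that respond to ribosome stress had a median of 0.09 and 0.18 in progenitors over excitatory neurons and 0.01 between libraries in excitatory neurons, over 5 measured genes of 10. There Mdm2 was at 45.3 and 49.1 CPM (log2 0.12, interval 0.04 to 0.20), Bax at 0.02, Mdm4 at -0.02 and Trp53inp1 at -0.08. In Cajal-Retzius cells over excitatory neurons the median was 0.73 and 0.35 over 8 measured genes.

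Over the 14 profiles of 7 classes in 2 libraries, Rack1 followed the summed ribosomal protein level most closely among 6843 genes outside the family, with a Pearson r of 0.974 on log2 levels. Btg2, an antiproliferative gene of neuron-producing progenitors, had 0.964 and Mapkapk2, a stress kinase, 0.962. Since Btg2 is also a marker by which intermediate progenitors were named, its place is not independent of the classes. Serf2 (0.942), Dazap2 (0.937), Ufc1 (0.937), Rpl9-ps6, a ribosomal protein pseudogene (0.930), Slc25a3, the mitochondrial phosphate carrier (0.925), Efhd2 (0.920) and Wasf2, a WAVE complex subunit (0.919), came next. Without microglia and macrophages, over 12 profiles, Rack1 had 0.983, Btg2 0.971 and Wasf2 0.873. The profiles share 2 libraries, and the class of all progenitors holds the cells of its subclasses, so these values describe and carry no p-value.

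RNA free in the droplets carried the family too. Barcodes with under 100 UMIs gave 15.4% and 15.5% of their UMIs to ribosomal protein genes, above the share of excitatory and GABAergic neurons and below that of progenitors. Rpl22l1 made up 32.4% and 32.4% of its pair there, against 65.4% and 64.6% in Cajal-Retzius cells. With the profile of these barcodes subtracted at 5% of each class, Rpl22l1 made up 67.4% and 66.6% of the pair in Cajal-Retzius cells. The 5% was a set value and not an estimate, and the part of free RNA in these shares was not tested.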

How the data were processed

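Droplet single-cell RNA of 2 pooled forebrains per library was measured. The deposited matrices hold UMI counts per gene and barcode, for every barcode. The authors made them using Cell Ranger 4 (per the file headers) and the build mm10 (per the submitters' processing notes). The sources used here state no other settings. All 84 members were found in GENCODE M21 by gene ID.

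Doublets were scored with Scrublet and left out at 0.8% per 1000 cells (660 and 1322, or 7.26% and 10.3%). The automatic threshold would remove 213 and 386. They stay in values over all cells. Clustering used scanpy 1.11.5, with 2000 variable genes without ribosomal protein genes, 30 components, 15 neighbours and Leiden resolution 1, which gave 29 clusters. A cluster took the marker family with the highest scaled level if 3 or more markers were 1.5-fold higher, at least 50% of cells had 3 markers, and no other family led its 10 top genes. This naming rule was set after the clusters were seen. Clusters 4 and 10 stayed unnamed. Counts were summed per class and library and divided by all UMIs. Ratios have exact Poisson intervals at 95% and shares exact binomial ones, which cover counting error only. The rule of size was tested on simulated counts that held counting error only, with no spread between cells, embryos or preparations.

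Members and lists were chosen with earlier results of these data known. Named members are the 5 highest and 5 lowest, the 5 at each end of progenitors over excitatory neurons, the 3 at each end between libraries, and the paralogues. Results of some named genes are not reported here. Genes named at the ends of the other class comparisons, and clusters singled out, were chosen after their values were seen. Alternatives covered scaling, doublets, mitochondrial and UMI limits, depth, cluster weights, free RNA and the filter on low values.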

Additional observations from a re-analysis of the deposited data

Results flagged for a closer look

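Barcodes with 100 to under 500 UMIs, which no comparison uses, gave 17.5% of their UMIs to ribosomal protein genes in the knockout-labelled library, above the 17.2% of the wild-type library (exact binomial intervals 17.44 to 17.48% and 17.16 to 17.21%, counting error only).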

How the results depend on the processing

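No paired analysis was possible because each group has 1 library, and for the same reason no replicate could be left out. Values are in the order wild-type, knockout-labelled, and the cause of each shift was not tested. For the medians and counts of members, leaving aside those of Cajal-Retzius cells and the comparison of microglia and macrophages between libraries, 116 alternatives stayed near the reported value and 54 moved. The other results include those left aside, the shares of UMIs, the summed ratios and the paralogue shares. Among their alternatives 96 stayed near the reported value, 140 moved and 1 reversed. Between libraries the median log2 ratio over all cells was 0.059 with median-of-ratios scaling, 0.047 without doublets and 0.12 in cells of 5000 to 10000 UMIs, and without the filter on low values 1 member passed the size rule. In excitatory neurons it was 0.047 with a mitochondrial maximum of 5%, 0.14 at matched depth and 0.053 with equal cluster weights. In GABAergic neurons it was 0.091 at matched depth and 0.062 with equal weights, and in progenitors 0.091 with median-of-ratios scaling, 0.034 with doublets kept and 0.17 at matched depth. Every median between libraries named here stayed above 0.

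Against excitatory neurons, GABAergic neurons had medians of 0.18 and 0.17 with totals that leave out the family, 0.48 and 0.43 at matched depth (31 and 25 members past the rule), 0.12 and 0.10 with a mitochondrial maximum of 5%, 0.056 and 0.063 without clusters 7 and 8 (1 member in wild-type) and, for the knockout-labelled library, 0.13 with doublets kept. Progenitors had 0.55 and 0.57 with such totals (34 and 39 members), 0.57 and 0.60 at matched depth (40 and 43), 0.45 and 0.46 with doublets kept, 0.42 and 0.42 with the 5% maximum, 0.50 and 0.52 with free RNA subtracted, 0.38 and 0.40 without clusters 7 and 8 (7 and 9) and, for wild-type, 0.44 with median-of-ratios scaling. Microglia and macrophages had 1.58 and 1.46 with median-of-ratios scaling, which takes out the shift of -0.72 and -0.62 in all measured genes, 1.0602 and 1.00 with such totals, 1.13 and 0.87 at matched depth (8 and 21 cells), 0.81 and 0.73 with the 5% maximum, 0.78 and 0.72 without clusters 7 and 8, a choice made after seeing the data, and, for the knockout-labelled library, 0.73 with doublets kept. In Cajal-Retzius cells the wild-type median turned to 0.30 at matched depth. The counts of members past the rule in that class are given with the result. Counts of members at the alternative settings have no share of all measured genes beside them. The number of cells, 38 and 59, limits it; the median depth there was 17732.5 and 16072 UMIs a cell.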
